A study of Mus musculus with 6 samples.

Results

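The accessible chromatin of mouse embryonic fibroblasts (MEFs) grown in 20% oxygen was compared between proliferating cells at passage 1 (Norm-Pro) and cells that had entered senescence (Norm-Sen). The members were the peaks of the ATAC-seq libraries whose sample labels give these conditions. They came to 130530 of the 215823 ATAC-seq peaks and of the 216828 peaks in all 6 libraries of the series. The libraries not compared here were 2 ATAC-seq libraries of MEFs kept in 3% oxygen, proliferating (Hyp-Pro) or immortalised (Hyp-Imm), and 2 ChIP-seq libraries for the transcription factor Tfcp2l1. All MEFs were primary cultures from wild-type C57BL/6J embryos at E13.5, with no transgene or deletion in these groups. Each condition had 1 library, so no value has a replicate error and no p-value is given. The names of the deposited peak lists give other conditions than the labels. The list labelled Norm-Pro is named for Hyp-Imm and the one labelled Norm-Sen for Hyp-Pro, and the conditions here follow the labels throughout.

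Senescence is a lasting exit from the cell cycle. In cultured mouse fibroblasts, high oxygen brings it on through oxidative damage, the p53 pathway and the cyclin-dependent kinase (CDK) inhibitors encoded at the Cdkn2a and Cdkn2b locus. Senescent cells are known to secrete cytokines and proteases, to enlarge their lysosomes and to reorganise heterochromatin at the nuclear lamina. In ATAC-seq, the transposase Tn5 cuts DNA that nucleosomes leave free, so that reads pile up at promoters and enhancers where transcription factors bind.

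The places on which the comparison turns are shown first, as 200 bases of GRCm38, plus strand, around the peak summit. The peaks of Eid1 (chr2:125672923-125673122) and Cox7a2 (chr9:79759726-79759925) were the strongest autosomal promoter peaks of Norm-Pro with no Norm-Sen peak. That of Rabgap1l (chr1:160531505-160531704) lay in an intron and was likewise present in Norm-Pro alone. The promoters of Birc3 (chr9:7872884-7873083), Mynn (chr3:30602490-30602689) and Actr1a (chr19:46395128-46395327) carried the strongest promoter peaks of Norm-Sen alone. Cdkn2a (chr4:89294707-89294906, the start site of p19ARF) and Cdkn2b (chr4:89310874-89311073) had peaks in both libraries. Capitals mark ACGTG (the core site of Hif factors) in Eid1, TGANTCA (AP-1) in Rabgap1l, and a pair of CCNG words 6 bases apart (Tfcp2l1) in Birc3. In the others they mark GGGCGG (the GC box of Sp and Klf factors), CCAAT (NF-Y) and CCGGAAG (ETS), on either strand. Not all matches are marked, and the Mynn stretch also held the Hif letters, left in lower case.
Eid1: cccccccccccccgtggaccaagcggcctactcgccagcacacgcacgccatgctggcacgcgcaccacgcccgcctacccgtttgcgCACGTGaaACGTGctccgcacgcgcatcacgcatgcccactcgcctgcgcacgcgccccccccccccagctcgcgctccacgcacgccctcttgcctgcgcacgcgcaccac
Cox7a2: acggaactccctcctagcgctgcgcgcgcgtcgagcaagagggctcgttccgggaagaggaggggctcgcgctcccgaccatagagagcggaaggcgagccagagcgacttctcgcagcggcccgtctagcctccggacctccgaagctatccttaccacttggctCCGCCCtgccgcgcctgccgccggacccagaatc
Rabgap1l: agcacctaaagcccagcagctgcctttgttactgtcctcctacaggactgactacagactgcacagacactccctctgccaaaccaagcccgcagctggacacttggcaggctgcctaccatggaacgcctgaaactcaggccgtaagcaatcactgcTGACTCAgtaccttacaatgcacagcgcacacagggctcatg
Birc3: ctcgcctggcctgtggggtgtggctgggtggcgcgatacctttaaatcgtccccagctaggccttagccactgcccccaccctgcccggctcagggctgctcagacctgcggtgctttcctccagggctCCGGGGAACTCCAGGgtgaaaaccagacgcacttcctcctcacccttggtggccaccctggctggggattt
Mynn: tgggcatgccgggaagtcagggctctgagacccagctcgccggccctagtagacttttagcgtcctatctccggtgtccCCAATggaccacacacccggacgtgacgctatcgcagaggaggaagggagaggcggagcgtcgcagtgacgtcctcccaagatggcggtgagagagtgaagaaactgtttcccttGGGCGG
Actr1a: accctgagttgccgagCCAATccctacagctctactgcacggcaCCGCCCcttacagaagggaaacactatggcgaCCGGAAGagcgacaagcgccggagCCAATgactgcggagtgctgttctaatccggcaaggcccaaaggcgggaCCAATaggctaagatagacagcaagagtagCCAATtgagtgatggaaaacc
Cdkn2a: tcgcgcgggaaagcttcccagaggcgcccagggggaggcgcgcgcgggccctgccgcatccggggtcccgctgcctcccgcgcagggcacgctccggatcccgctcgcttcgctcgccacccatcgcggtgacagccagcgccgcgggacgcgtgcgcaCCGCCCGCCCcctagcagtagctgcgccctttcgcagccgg
Cdkn2b: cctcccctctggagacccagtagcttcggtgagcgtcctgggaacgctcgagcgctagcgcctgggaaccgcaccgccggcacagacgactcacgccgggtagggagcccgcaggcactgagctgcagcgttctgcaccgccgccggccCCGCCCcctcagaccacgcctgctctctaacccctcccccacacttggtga
Eid1 held 3 matches of the Hif letters over both strands, of which 2 overlap in CACGTG. The intronic peak of Rabgap1l held 1 AP-1 match. Actr1a held 4 CCAAT boxes, while the Cdkn2a stretch held 2 GC boxes and no CCAAT box. A match of letters describes the sequence and does not show that a factor was bound.

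The 2 libraries were of similar size but not of the same depth. Norm-Pro had 69122 peaks that covered 10068894 bp, and Norm-Sen had 61408 peaks that covered 8994314 bp. The median peak was 118 and 120 bp wide. The reads stacked at each peak's highest point were recovered from the deposited fold enrichment and p-value, on the assumption that MACS2 computed both from a Poisson background, and all of the peaks in both lists gave a whole number. The genome-wide background was 1.24 reads in Norm-Pro and 1.77 in Norm-Sen, so that Norm-Pro had 70.1% of the background of Norm-Sen. A peak rested on a median of 11 reads in Norm-Pro and 13 in Norm-Sen, with at least 6 and 8. Even the 10000 strongest peaks, ranked by −log10 q, rested on medians of 19 and 21. Counts of this size carry wide intervals. All intervals below are exact 95% intervals (binomial for shares, Poisson for reads, conditional binomial for ratios) and cover counting error only.

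The libraries stood apart on chromosome X. It held 746 peaks of Norm-Pro (1.08%; 1.01 to 1.16) and 2725 of Norm-Sen (4.45%; 4.29 to 4.61), so its share was 4.11 times as high in Norm-Sen, while the ratio of shares on the autosomes lay between 0.914 and 1.05. The gap was wider away from promoters (0.782% against 4.76% of distal peaks) than at promoters (2.1% against 3.50%). On the part of chromosome Y before 90 Mb, Norm-Pro had 8 peaks and Norm-Sen had 1. The strongest of them, chrY:259087-259455, ranked 254th in Norm-Pro. Ddx3y, a Y-linked RNA helicase gene, had a promoter peak in Norm-Pro alone (−log10 q 3.10). Firre, an X-linked long non-coding RNA gene, had a strong promoter peak in Norm-Pro (−log10 q 10.5) and a weak one in Norm-Sen (2.23). Ftx, a neighbour of Xist, had its strongest promoter peaks at different sites (4.69 in Norm-Pro and 12.4 in Norm-Sen). Its values are therefore not of 1 site. Xist itself had no promoter peak in either. The labels do not give the sex of the embryos, and whether it differed between the libraries was not tested. The main counts and shares are therefore also given for the autosomes.

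**Figure D1:**
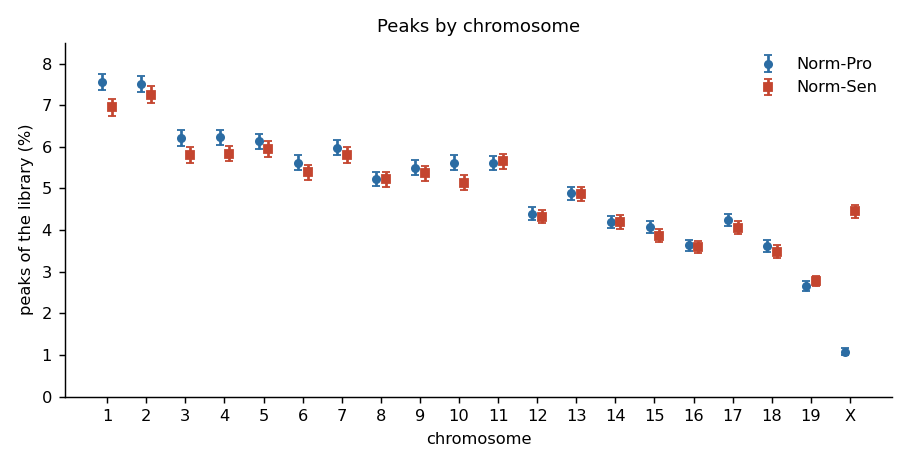
Points give the share of each library's peaks (percent) on chromosomes 1 to 19 and X in Norm-Pro and Norm-Sen; error bars are exact 95% binomial intervals. The points lie close together on every autosome and apart on X, at 1.08% and 4.45%.

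Which open regions did proliferating and senescent MEFs share? Merging the 2 lists where peaks overlapped or touched gave 114571 regions. Both libraries had a peak in 14570 of them (12.7%; 12.5 to 12.9), Norm-Pro alone in 53902 (47.0%) and Norm-Sen alone in 46099 (40.2%). On the autosomes the shared part was also 12.7%. Seen from each library, 22.0% of the Norm-Pro peaks and 24.9% of the Norm-Sen peaks overlapped a peak of the other by at least 1 bp. With the same number of peaks taken from each, 61408 by −log10 q, the shared part was 13%, with 46814 and 46650 regions in one library alone.

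Overlap depended on peak strength in both directions. Of the 1000 strongest peaks, 99.1% of Norm-Pro and 99.7% of Norm-Sen overlapped a peak of the other library. Of the next peaks up to rank 5000 the shares were 86.7% and 86.9%, then 55.4% and 52.5% up to rank 10000, 26.2% and 25.3% up to rank 20000, and 14.6% and 15.6% up to rank 40000. The weakest peaks, beyond rank 40000, overlapped in 8.40% and 11.9% of cases. Regions in one library alone accordingly rested on few reads, a median of 10 in Norm-Pro and 13 in Norm-Sen, and shared regions on 16 and 18. Scaled by the genome-wide background, a peak of 10 reads in Norm-Pro corresponds to 14.3 reads in Norm-Sen, whose weakest peak had 8. Scaled by the shared regions it corresponds to fewer, as these were higher in Norm-Sen by a median of only 0.17 on the log2 scale. The 8 reads hold at the genome-wide background. The median local background of Norm-Sen peaks was higher, at 2.26 reads, where a peak needs more. The reads that lay at such a place in the other library are not listed, so a region without a peak is not shown to be closed.

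To set weak peaks aside, a region was called strong where it held one of its library's 10000 strongest peaks and no peak of the other library. There were 2771 such regions in Norm-Pro, from 9924 regions that held one of these peaks (27.9%), and 2903 of 9902 in Norm-Sen (29.3%). They rested on medians of 16 and 17 reads. For comparison, a shared region was counted as strong where it held one of the 10000 strongest peaks of either library.

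The shared regions were mostly promoters, and the regions of one library alone were mostly distal. A region within 1 kb of the start site of a protein-coding gene was counted as a promoter region. They made up 63.5% (62.7 to 64.3) of the shared regions, 11.0% (10.7 to 11.2) of those in Norm-Pro alone and 11.5% (11.3 to 11.8) of those in Norm-Sen alone. Without chromosome X the shares were 63.8%, 10.8% and 11.5%. Among the strong regions the libraries differed beyond counting error. Promoters made up 830 of 2771 in Norm-Pro alone (30.0%; 28.3 to 31.7) and 619 of 2903 in Norm-Sen alone (21.3%; 19.8 to 22.9). On the autosomes these shares were 29.8% (28.1 to 31.6) and 21.6% (20.1 to 23.2). A start site itself lay inside 15.5% (14.2 to 16.9) and 8.06% (7.10 to 9.11) of them. Intergenic places took 38.1% and 46.5%, and 19.5% and 24.3% lay more than 100 kb from any start site. Without chromosome X, intergenic places took 38.1% and 45.2%, and 19.6% and 24.4% lay beyond 100 kb. Strong regions seen in Norm-Sen alone thus lay farther from genes in these 2 libraries. With weak regions included, the order was reversed. Of all regions in one library alone, 30.6% (30.2 to 31.0) in Norm-Pro and 27.9% (27.5 to 28.3) in Norm-Sen lay beyond 100 kb.

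**Figure D2:**
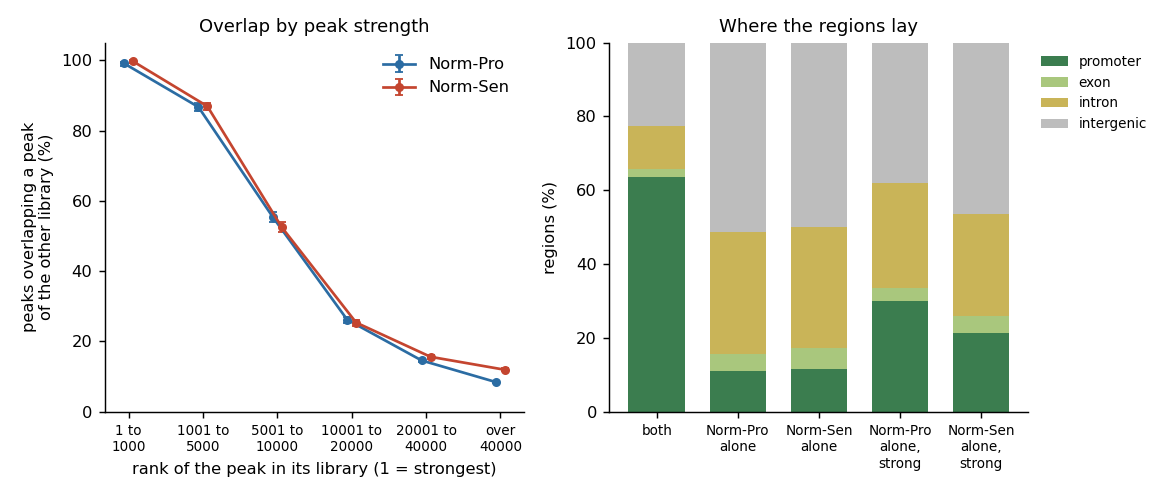
Left, percent of Norm-Pro and Norm-Sen peaks that overlap a peak of the other library, by rank of −log10 q, from 99.1% and 99.7% in the first 1000 to 8.40% and 11.9% in the last ranks, with exact 95% binomial intervals as error bars. Right, percent of regions at promoters, exons, introns and between genes, for shared regions and for regions and strong regions of one library; promoters take 63.5% of shared regions and 30.0% and 21.3% of the strong regions of Norm-Pro and Norm-Sen alone.

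The classes also differed in sequence and width. Shared regions were a median of 248 bp wide, against 111 bp in Norm-Pro alone and 113 bp in Norm-Sen alone. The median GC content of promoter regions was 68.5% when shared, 65.0% in Norm-Pro alone and 64.5% in Norm-Sen alone. For distal regions it was 56.0%, 51.0% and 52.5%. More than 50% of the bases were repeat-masked in 16.5% of the shared distal regions, and in 25.2% and 23.4% of those in one library alone.

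The MEFs kept in 3% oxygen gave a further view of these regions. Of the shared regions, 63.6% also held a peak in Hyp-Pro and 41.5% in Hyp-Imm. For regions in Norm-Pro alone these shares were 7.22% and 3.70%, and for Norm-Sen alone 7.93% and 3.44%. Neither 3% oxygen library had a peak in 90.3% of the regions of Norm-Pro alone and in 89.7% of those of Norm-Sen alone, nor in 68.4% and 75.3% of the strong ones. Hyp-Pro and Hyp-Imm were shallower, with backgrounds of 0.955 and 0.446 reads against 1.77 in Norm-Sen, and had 47523 and 37770 peaks. A region without a peak there is not shown to be particular to 20% oxygen, and the part of depth was not tested. The Tfcp2l1 ChIP-seq library of Norm-Sen had 393 peaks, of which 135 (34.4%) lay on a Norm-Pro ATAC-seq peak and 123 (31.3%) on a Norm-Sen one.

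Most protein-coding genes with a promoter peak had one in both conditions. A promoter peak in both was found for 9625 of 21839 genes (44.1%), and 8537 (39.1%) had none. The promoter was marked in Norm-Pro alone at 2034 genes (9.31%) and in Norm-Sen alone at 1643 (7.52%). With the same number of peaks per library, the counts were 1884 (8.63%) and 1770 (8.1%). A strong peak in one library alone was found at 374 promoters of Norm-Pro (1.71%) and 229 of Norm-Sen (1.05%). These percentages are the background against which each gene group below is read. On the 20695 autosomal genes, the counts were 1991 and 1504. On the 948 X-linked genes, they were 42 (4.43%) and 139 (14.7%). Promoters marked in one library alone had weak peaks, of median rank 28520.5 in Norm-Pro and 30361 in Norm-Sen, while those marked in both had median ranks of 6135 and 6616. If the file names rather than the labels gave the conditions, the pair would be the lists labelled Hyp-Pro and Hyp-Imm, with 4259 and 1207 promoters in one alone.

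The locus of the CDK inhibitors was open in both conditions. Cdkn2a encodes p16INK4a, an inhibitor of Cdk4 and Cdk6, and from another start site p19ARF, which stabilises p53. At the start site of p16INK4a (89282192 on chromosome 4), Norm-Pro had 11 reads (5.49 to 19.7; rank 34340) and Norm-Sen 17 (9.90 to 27.2; rank 4811). Relative to the median promoter, the log2 ratio of Norm-Sen over Norm-Pro was 0.51 (−0.67 to 1.75). The p19ARF start site (89294653) had 16 reads (9.15 to 26.0; rank 8994) and 21 reads (13 to 32.1; rank 2239), a log2 ratio of 0.27 (−0.74 to 1.31), or −0.12 on the background scale described below. Both start sites of Cdkn2a therefore ranked higher in Norm-Sen, but neither ratio differed from 0 beyond counting error. Cdkn2b, which encodes p15INK4b, had 24 reads (15.4 to 35.7) in Norm-Pro and 22 (13.8 to 33.3) in Norm-Sen, a log2 ratio of −0.25 (−1.15 to 0.65).

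Among the other inhibitors, only Cdkn1a had its strongest peaks at different sites. Cdkn1a, which encodes the p53 target p21Cip1, had a Norm-Pro peak of 22 reads (13.8 to 33.3) at its inner start site (29093769 on chromosome 17). Its Norm-Sen peak of 15 reads (8.40 to 24.7) lay at the upstream start site (29090979), so the 2 values are not of 1 site. Cdkn1b, which encodes p27Kip1, had a peak in Norm-Pro alone, of 15 reads (8.40 to 24.7; rank 14671). Cdkn2c had 21 and 22 reads, a log2 ratio of −0.05, and Cdkn2d 26 and 37, a log2 ratio of 0.39. Of the 7 inhibitors, 5 had a promoter peak in both libraries and 1 in Norm-Pro alone.

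Promoter strength could be compared where the strongest promoter peaks of the 2 libraries overlapped, at 7428 of the 9625 genes (77.2%). The reads of Norm-Sen were divided by those of Norm-Pro and set relative to the median promoter, which was higher in Norm-Sen by 0.12 on the log2 scale. Few of these promoters differed 2-fold: 23 (0.31%) had at least 2-fold more reads in Norm-Sen and 15 (0.202%) at least 2-fold fewer. On the autosomes there were 16 and 15. A promoter whose peak fell below the calling threshold in 1 library does not enter these counts, so they do not cover the promoters marked in one library alone. Genes that share a promoter peak, such as Mut and Cenpq, are each counted. The interval of the ratio left out 0 at 55 promoters (0.740%), above 0 at 27 and below 0 at 28. At the level used for all intervals here, some leave out 0 by counting error alone, and 0.740% is no more than that level allows. A single promoter named below whose interval leaves out 0 is therefore not shown to differ beyond counting error. Scaled by the genome-wide background in place of the median promoter, every log2 ratio falls by 0.39, and 0 promoters then had 2-fold more reads in Norm-Sen and 289 had 2-fold fewer. The direction of a single gene below is therefore relative to the other promoters.

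None of the genes that the study followed for senescence, hypoxia and stemness had a ratio that differed from 0 beyond counting error, among the 14 with overlapping peaks. Trp53, which encodes p53, had 17 reads in Norm-Pro and 26 in Norm-Sen, a log2 ratio of 0.49 (−0.45 to 1.46). Tbx3, a repressor of the Cdkn2a locus, had 15 and 27 reads, the largest ratio of this group at 0.73 (−0.24 to 1.74). Ezh2 and Jarid2, of Polycomb repressive complex 2, had 23 and 28 reads (0.16) and 29 and 33 reads (0.06). Ldha, the lactate dehydrogenase gene that Hif factors activate, had 24 and 18 reads, the lowest ratio at −0.54 (−1.50 to 0.41). Hif1a itself had 37 and 36 reads (−0.16). Bax, a p53 target that promotes apoptosis, had 16 and 20 (0.20).

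Of the 28 genes of this group, 21 had a promoter peak in both libraries, 3 in Norm-Pro alone (10.7%) and 2 in Norm-Sen alone (7.14%). Klf4 had 27 reads in both libraries (−0.12), Klf2 32 and 28 (−0.31) and Stat3 26 and 30 (0.08). Esrrb with 14 reads, Tgfa with 13 and Sox2 with 9 had promoter peaks in Norm-Pro alone. Vegfa with 21 reads and Nanog with 14 had them in Norm-Sen alone. Pou5f1 and Gbx2 had no promoter peak in either library. Tfcp2l1 had peaks at different sites, of 17 reads in Norm-Pro and 15 in Norm-Sen, and so had Bmi1 (16 and 18), Sox9 (15 and 20) and Myc (21 and 18).

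**Figure D3:**
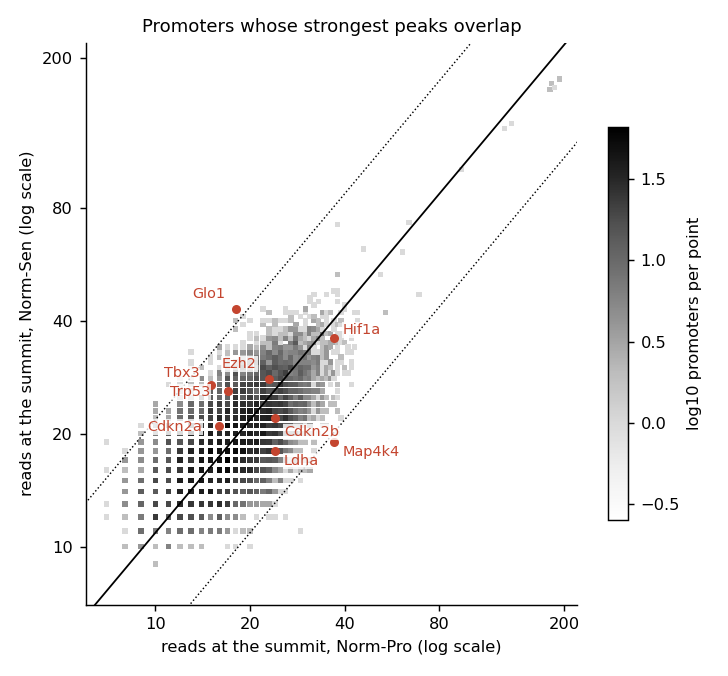
Reads at the summit of the strongest promoter peak in Norm-Pro (x axis) and Norm-Sen (y axis), both on log scales, for the 7428 genes whose peaks overlap; darker squares hold more promoters, the solid line is the median ratio and the dotted lines mark a 2-fold difference. The labelled genes are those given in the text; Cdkn2a and Cdkn2b lie within the dotted lines, and Glo1 and Map4k4 outside them.

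The promoters with the most unequal reads were chosen after their values were seen, by the bound of the interval nearest to 0. Their intervals take no account of this choice. Glo1, which encodes glyoxalase of methylglyoxal detoxification, had 18 reads in Norm-Pro and 43 in Norm-Sen, a log2 ratio of 1.13 (0.31 to 2.02). Etfdh, of the electron transfer from fatty acid oxidation, had 18 and 40 reads (1.03), Spen 19 and 41 (0.99), Arhgap18 11 and 27 (1.17), and the interferon receptor gene Ifnar1 19 and 39 (0.92). In the other direction, Emc7 had 29 and 11 reads, a log2 ratio of −1.52 (−2.67 to −0.48). Map4k4 had 37 and 19, at −1.08 (−1.96 to −0.25), and Uggt1 26 and 12 (−1.24).

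Promoters of the extracellular matrix were marked more often in Norm-Pro alone than in Norm-Sen alone. Of 35 matrix genes, 14 had a promoter peak in both, 11 in Norm-Pro alone (31.4%, against 9.31% of all genes), 2 in Norm-Sen alone (5.71%, against 7.52%) and 8 in neither. Of the 11, Col5a1 had 31 reads, Loxl1, a lysyl oxidase that crosslinks elastin, 23, and Thbs1, thrombospondin, 20. Further down, Eln (elastin) had 16 reads, Postn (periostin) 15, Fbn1 (fibrillin) 13 and Dcn (decorin) 9, and Col11a1, Ccn1, Col6a3 and Col8a1 lay between 10 and 17. In Norm-Sen alone there were Col6a1 with 19 reads and Col5a2 with 12. Of the 11, 10 remained with the same number of peaks per library, and 4 were strong, against 0 in Norm-Sen. Where both libraries had overlapping peaks, 7 of 9 matrix promoters had a lower ratio than the median promoter, with a list median of −0.22, and all intervals held 0. Fn1, fibronectin, had 31 reads in Norm-Pro and 20 in Norm-Sen (−0.75), and Col1a1 25 and 19 (−0.52). In the surroundings of these genes, 393 regions were in Norm-Pro alone and 252 in Norm-Sen alone, a Norm-Sen share of 39.1% against 46.2% over all genes.

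Genes for the factors that senescent cells secrete were marked on both sides. Of 45, 15 had a promoter peak in both, 9 in Norm-Pro alone (20.0%), 5 in Norm-Sen alone (11.1%) and 16 in neither. In Norm-Pro alone were the urokinase gene Plau (19 reads) and its receptor Plaur (16), the gelatinases Mmp9 (14) and Mmp2 (11), the adhesion molecule Icam1 (14) and the growth factor binding proteins Igfbp4 (17) and Igfbp2 (13), with Ccl7 (12) and Fgf2 (11). In Norm-Sen alone were Vegfa (21), the neutrophil chemokines Cxcl1 (18) and Cxcl5 (11), Igfbp5 (17) and the Egf receptor ligand Areg (16). The cytokine genes Il6 (14 and 13 reads; −0.23) and Ccl2 (19 and 18; −0.20) had peaks in both. Timp1, which is X-linked, had 11 and 21 reads (0.81), and Igfbp7 12 and 22 (0.75).

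Promoters of the cell cycle machinery were open in senescent as in proliferating cells. Of 58 genes for cyclins, kinases, E2F factors and replication proteins, 47 had a promoter peak in both libraries, 5 in Norm-Pro alone (8.62%), 2 in Norm-Sen alone (3.45%) and 4 in neither. The 5 were E2f2 and Plk1 (14 reads each), Aurkb (13), Top2a (11) and Ccnb2 (10). All were weak peaks, of ranks 46754 to 53954, and their share was below the 9.31% of all genes. The 2 were the replication licensing genes Mcm2 (19) and Cdt1 (17). At the 41 promoters with overlapping peaks, the median log2 ratio was 0.06 (−0.33 on the background scale), with 21 above and 20 below the median promoter. The p53 pathway had 21 of 24 promoters in both, 1 in Norm-Pro alone (Trp73; 4.17%) and 1 in Norm-Sen alone (Fas; 4.17%). Of 30 genes of DNA damage and telomeres, 25 were in both, 4 in Norm-Pro alone (13.3%) and 1 in Norm-Sen alone (Rtel1; 3.33%). Among the 4 was the telomerase gene Tert (12 reads).

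Genes for transcription factors of mesenchymal cells had their one-sided promoters mostly in Norm-Pro. Of 50, 30 were in both, 9 in Norm-Pro alone (18%), 3 in Norm-Sen alone (6.00%) and 8 in neither. Norm-Pro alone held, among others, Msx2 (14 reads), Sox5 (13), Tcf21, Zeb2 and Gata4 (12 each), and Norm-Sen alone held Foxc2 (19), Runx1 (18) and Foxf1 (17). Of the 9 in Norm-Pro alone, 7 remained with the same number of peaks per library, where Norm-Sen alone had 4. Among 15 AP-1 genes, 10 were in both and 3 in Norm-Pro alone (20%, against 9.31% of all genes). The 3 were Jdp2 (25 reads), Fosb (20) and Fosl1 (15). Of 35 growth factors and receptors, 23 were in both, 3 in Norm-Pro alone (8.57%) and 5 in Norm-Sen alone (14.3%, against 7.52% of all genes). The 3 were Fzd2, Wnt2 and Wnt5a, of the Wnt pathway. Among the 5 were Tgfb2 (25 reads) and Bmp2 (20), ligands of the transforming growth factor family.

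Chromatin regulators were mostly open in both conditions. Of 29 Polycomb genes, 22 had promoter peaks in both, 3 in Norm-Pro alone (10.3%) and 2 in Norm-Sen alone (6.9%). These shares were near those of all genes (9.31% and 7.52%). The 3 were Pcgf2 with 23 reads, Pcgf1 with 17 and Pcgf6 with 14, and the 2 were Cbx2 with 23 and Phf19 with 15. The X-linked demethylase gene Kdm6a had 13 and 31 reads, a log2 ratio of 1.13 (0.16 to 2.19). Of 29 genes of the lamina, HMG proteins and heterochromatin, 25 were in both, 1 in Norm-Pro alone (Setdb1; 3.45%) and 2 in Norm-Sen alone (6.9%). The 2 were H2afy with 25 reads and Lmnb2 with 17.

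Metabolic and stress genes had promoters mostly open in both conditions. Of 42 genes of the hypoxia response and glycolysis, 32 were in both, 4 in Norm-Pro alone (9.52%) and 3 in Norm-Sen alone (7.14%). These shares were near those of all genes (9.31% and 7.52%). The 4 were Slc16a3 with 22 reads, Egln2 with 20, P4ha2 with 16 and Aldoc with 12. The 3 were Vegfa, Tpi1 with 20 and Hif1an with 14. Of 36 mitochondrial genes, 28 were in both, 4 in Norm-Pro alone (11.1%) and 2 in Norm-Sen alone (5.56%). Tfam, the factor that packs and transcribes mitochondrial DNA, had 31 reads in Norm-Pro and 17 in Norm-Sen, a log2 ratio of −0.99 (−1.93 to −0.09). Near the mitochondrial genes, 150 regions were in Norm-Pro alone and 90 in Norm-Sen alone, a Norm-Sen share of 37.5% (31.4 to 44.0) against 46.2% over all genes. Of 28 antioxidant genes, 23 were in both, and Hmox1, heme oxygenase, had 22 and 13 reads (−0.88).

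Lysosome and autophagy promoters, 34 in all, were in both at 23, in Norm-Pro alone at 3 (8.82%) and in Norm-Sen alone at 4 (11.8%). Glb1, the gene of the acid beta-galactosidase used to stain senescent cells, had a promoter peak in Norm-Pro alone (18 reads). Norm-Sen alone held Gabarap (19), Ctsb and Lamp1 (16 each), among others. Of the 17 lysosome and autophagy promoters with overlapping peaks, 13 had a lower ratio than the median promoter and 4 a higher one. Their median was −0.20, and all intervals held 0. The ribosomal protein genes had 27 of 41 higher and a median of 0.16, which turned to −0.23 on the background scale. All of their intervals held 0 as well. Of these 75 genes, 51 were in both, 9 in Norm-Pro alone (12%) and 5 in Norm-Sen alone (6.67%).

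Of 36 innate immune genes, 18 were in both, 7 in Norm-Pro alone (19.4%) and 5 in Norm-Sen alone (13.9%), against 9.31% and 7.52% of all genes. Of these, 3 of the 7 and 0 of the 5 were strong. Norm-Pro alone held Nfkb2 (27 reads), Irf1 (22) and the DNA sensor gene Cgas (16), and Norm-Sen alone held Nfkbie (19), among others. Nfkb1 had 27 reads in Norm-Pro and 15 in Norm-Sen, a log2 ratio of −0.97 (−1.99 to −0.01). Of 30 pluripotency genes, 12 were in both and 4 in each library alone (13.3% each), among them Mycn (18 reads) in Norm-Pro and Utf1 (21) in Norm-Sen.

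**Figure D4:**
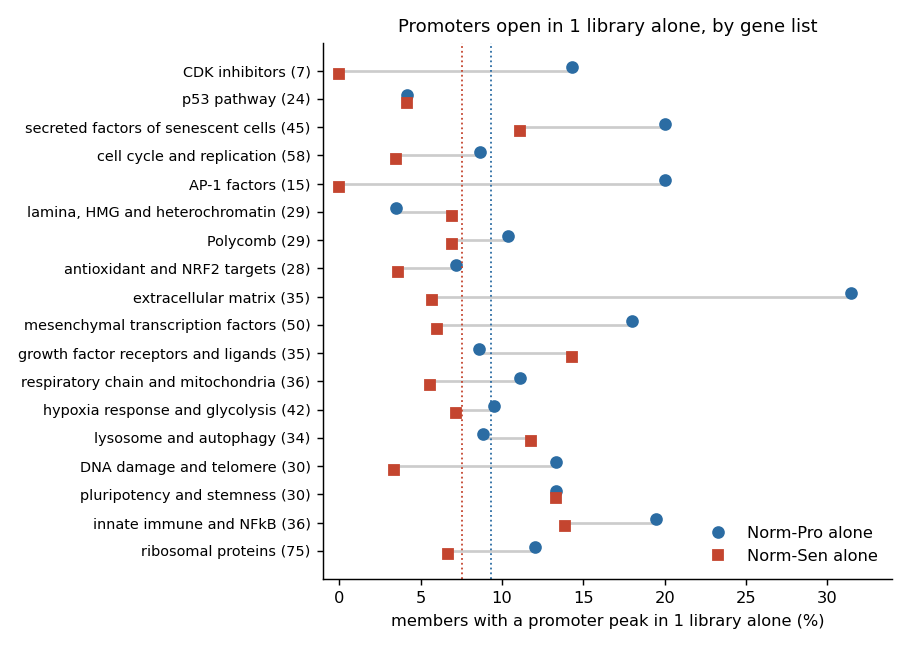
Percent of the members of each of 18 gene lists with a promoter peak in Norm-Pro alone or Norm-Sen alone; dotted lines mark the shares over all protein-coding genes, 9.31% and 7.52%. Numbers beside the names count the members. The matrix list lies farthest above the Norm-Pro line, with 11 of its 35 members in Norm-Pro alone.

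The label of the cells was checked at marker promoters. Of 12 fibroblast markers, 5 had a promoter peak in both, 1 in each library alone and 5 in neither. The shares in both (41.7%) and in neither (41.7%) lay near those of all genes (44.1% and 39.1%). These markers therefore do not settle the label. Of 35 markers of endothelial, immune, epithelial, neural, muscle, cartilage and red blood cells, 7 had one in both, 5 in Norm-Pro alone, 4 in Norm-Sen alone and 19 in neither. The part that other cell types had in the differences above was not tested.

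The strongest regions of one library alone lay at promoters, in introns and, more often in Norm-Sen, between genes. For Norm-Pro they began with Eid1, an inhibitor of the acetyltransferase p300, at chr2:125672918-125673159, with 29 reads (19.4 to 41.6), an enrichment of 9.46-fold and a rank of 353. Introns of Rabgap1l (22 reads, 89.5 kb from the start site) and Appl2 (26) followed. The promoters of Cox7a2, a cytochrome c oxidase subunit, had 21 reads, of Xpnpep3 24, of Thap1 28 and of the X-linked Nxt2 21. A region 55.0 kb from Lif, a cytokine that sustains stem cells, also had 21. For Norm-Sen they began with Birc3, an inhibitor of apoptosis induced by NFkB, at chr9:7872899-7873098, with 30 reads (20.2 to 42.8), 7.77-fold and a rank of 717. The promoters of Mynn (27 reads), Actr1a (31), Zfp956 (30) and Trmt10c (22) followed, with intergenic regions near Abo (27), Ubash3b (25) and the X-linked Spin4 (22) and an exonic one in the X-linked Mid1 (31). A region in Eif4enif1 had 70 reads, over a local background of 21.3 reads, the highest of those named.

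Around single genes, regions of one library alone were unevenly spread. Domains were drawn from 5 kb upstream to 1 kb downstream of the start site and extended to the next gene by up to 1 Mb. The genes named here were picked for the largest differences between these counts, so the differences are no test. Over all genes, Norm-Sen held 46.2% of the regions in one library alone. Bcl6, a transcriptional repressor, had 22 regions in Norm-Sen alone and 6 in Norm-Pro alone, Ptpru 23 and 7, Matn1 23 and 8, Trpc7 27 and 12, and Gm15319 32 and 10. On the other side, Gpc5, a glypican, had 18 in Norm-Sen alone and 45 in Norm-Pro alone, Tprg 14 and 41, Dlgap1 27 and 53, Klf12 24 and 50, and the kinase gene Prkd1 12 and 38. With the same number of peaks per library the order of the 2 counts held for each of these 10 genes, and Klf12 for example had 24 and 42. Only Norm-Pro peaks are dropped in that setting, so for the genes higher in Norm-Sen the order could hardly reverse. Strong regions were few in these domains except at Gm15319, with 16 in Norm-Sen alone and 3 in Norm-Pro alone.

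The strong distal regions differed in the letters they held within 200 bp of sequence around the summit. Only autosomes were used here, except where stated. They held 2094 strong shared regions of the 5132 shared distal ones, 1925 in Norm-Pro alone and 2115 in Norm-Sen alone. The AP-1 letters TGANTCA lay in 19.3% (17.6 to 21.1) of these shared regions, 13.1% (11.7 to 14.7) of Norm-Pro alone and 11.2% (9.89 to 12.6) of Norm-Sen alone, against 14.6% of all 3 classes together. The letters of the insulator protein CTCF, CCA and AG and GGC with 2 free bases between each, lay in 6.88% of the shared regions, 5.82% (4.81 to 6.96) of Norm-Pro alone and 3.74% (2.97 to 4.63) of Norm-Sen alone, and in 5.46% of all. The intervals of Norm-Pro alone and Norm-Sen alone do not overlap for CTCF in this set. Over all distal regions of one library alone, they do, at 2.59% (2.45 to 2.73) and 2.42% (2.27 to 2.57). This wider set includes weak regions and those of chromosomes X and Y. RUNX letters (TGTGGTT; 4.84% of all) lay in 5.87% (4.86 to 7.02) of Norm-Pro alone and 4.07% (3.27 to 5.00) of Norm-Sen alone, and these intervals overlap. ETS letters (2.07% of all) lay in 1.30% (0.842 to 1.91) and 2.17% (1.60 to 2.89), with intervals that also overlap. Tfcp2l1 letters lay in 26.3% of the shared regions, 13.9% (12.4 to 15.5) of Norm-Pro alone and 17.3% (15.7 to 19.0) of Norm-Sen alone, whose intervals do not overlap, and in 19.3% of all. Over the wider set of distal regions they lay in 14.1% (13.8 to 14.5) of Norm-Pro alone and 15.3% (14.9 to 15.6) of Norm-Sen alone. The GC box of Sp and Klf factors (13.9% of all) lay in 25.2% of the strong shared regions and in 8.42% and 7.66% of the others, while the CCAAT box was similar in all 3 (21.7%, 20.0% and 19.8%, and 20.5% of all).

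At strong promoter regions of the autosomes, the CCAAT box lay in 34.5% of the shared ones, 22.0% (19.2 to 25) of Norm-Pro alone and 18% (15 to 21.4) of Norm-Sen alone, against 32.1% of all. The cyclic AMP response element TGACGTCA lay in 3.24%, 2.93% (1.89 to 4.33) and 1.03% (0.379 to 2.23), and in 3.05% of all. The GC box lay in 72.7%, 55.4% (51.9 to 58.8) and 50.4% (46.3 to 54.6), and in 69.4% of all. The intervals of Norm-Pro alone and Norm-Sen alone overlap for each of these. Tfcp2l1 letters lay there in 43.5%, 42.2% and 43.9%, and 43.4% of all. GC content differed between the classes, as given above, and its part in these shares was not tested.

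**Figure D5:**
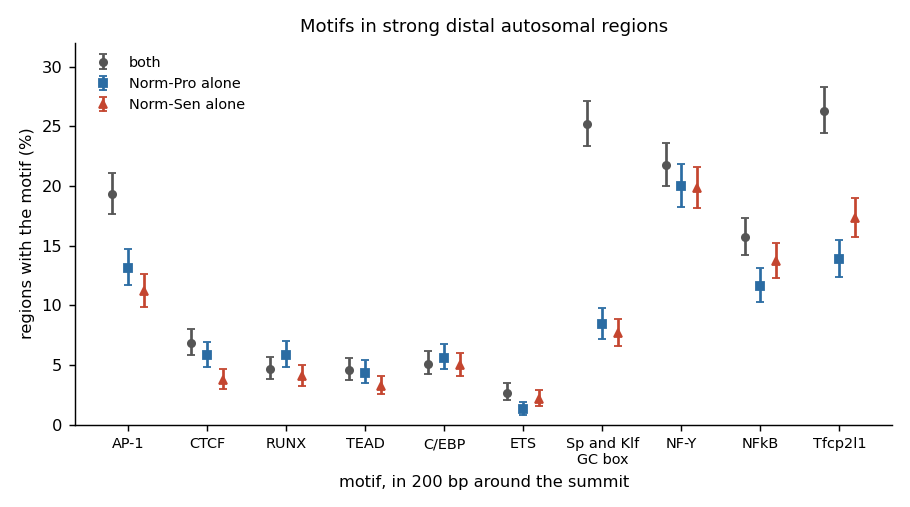
Percent of strong distal autosomal regions whose 200 bp around the summit hold the letters of each of 10 motifs, for shared regions, Norm-Pro alone and Norm-Sen alone, with exact 95% binomial intervals. AP-1 letters lie in 19.3%, 13.1% and 11.2%, and CTCF letters in 6.88%, 5.82% and 3.74%.

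The X-linked promoters are given apart. At the 176 X-linked genes with overlapping peaks, the median was 12.5 reads in Norm-Pro and 18 in Norm-Sen, and the median log2 ratio was 0.38, with 145 above the median promoter. At the 7245 autosomal genes, the medians were 19 and 21 reads. X-linked regions were shared in 302 cases, and 432 were in Norm-Pro alone and 2409 in Norm-Sen alone. The 1-library X-linked members of the gene lists, such as G6pdx (11 reads, Norm-Pro alone), and the ratios of Timp1 and Kdm6a belong to this chromosome.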

How the data were processed

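ATAC-seq was done on Norm-Pro and Norm-Sen MEFs, 1 library each. The authors aligned reads with Bowtie2, removed pairs more than 2 kb apart, shifted reads for the Tn5 cut and ran MACS2 on every library separately (FDR 0.05). The deposited lists give GRCm38 positions and, per peak, the authors' score, a fold enrichment (the ratio of signal to local background), a −log10 p-value and a −log10 q-value. The files give no read total per library. The weakest peaks depend on each library's depth.

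From these files, peaks were merged into regions where they overlapped or touched (shares of overlapping peaks count 1 bp or more), annotated with GENCODE start sites, and ranked by −log10 q. Reads at each summit were solved as the whole number that gives both the deposited fold and −log10 p under a Poisson background with a pseudocount of 1, as MACS2 is assumed to have computed them, within 0.001 of −log10 p (69122 of 69122 and 61408 of 61408 peaks). No source used here states that formula, and all read counts and ratios rest on it. Letters of motifs were searched on both strands of the reference, 200 bp around each summit. Sequences came from the GRCm38 reference.

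The genes named were those the study followed, the nearest genes of the strongest regions of one library, members of 27 gene lists (676 entries), with up to 6 per direction, strongest first, and the 5 genes per direction with the most unequal domains. This was an upper limit: genes of chromosome 18 and some others that the rule allows are not named, and in short lists more than 6 are. Promoters with the most unequal reads were added after their values were seen. The members and lists were chosen with earlier results of these data known. No test across libraries was possible with 1 library per condition. Alternatives were other peak numbers, overlaps and promoter widths, autosomes, conditions by file name and other scalings. Python 3.11.15, pandas 2.3.3, NumPy 2.4.6, SciPy 1.17.1, pysam 0.24.0, matplotlib 3.10.9 and samtools 1.23.1 were used. Some results on single genes are not reported here.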

Additional observations from a re-analysis of the deposited data

Results flagged for a closer look

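By the labels, the share of peaks at promoters went in opposite directions at the 2 oxygen levels. It was 2.02 percentage points higher in Norm-Sen than in Norm-Pro, and the difference of Hyp-Imm from Hyp-Pro was −7.10 points. The share of peaks on chromosome X also went in opposite directions, with differences of 3.37 points in 20% oxygen and −3.33 points in 3% oxygen. These contrasts rest on 1 library per condition, and the difference between them was not tested. They also rest on the labels. By the file names, the labelled Hyp pair would be the 20% oxygen pair, and the labelled Norm pair the 3% oxygen pair in reverse order. Both shares would then be lower in the senescent or immortalised cells at both oxygen levels, with no opposite directions.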

How the results depend on the processing

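The shared part of the regions (12.7%) was 28.6% with a −log10 q of at least 5, 33.8% with the 10000 strongest peaks, 9.05% with conditions by file name, 11.5% with an overlap of 50% of the shorter peak, 15.2% with peaks within 500 bp and 13% with the same number of peaks. In the same order, promoters made up 36.7%, 47.3%, 21.6%, 11.7%, 6.07% and 11.4% of the regions in Norm-Pro alone (11.0%), and 28.4%, 38.3%, 9.66%, 12.4% and 6.06% of those in Norm-Sen alone (11.5%), where the same number of peaks changed little. With promoters of 2500 bp the shares were 13.6% and 14.4%, and with 500 bp 9.11% and 9.53%. By file name, 4259 promoters were in Norm-Pro alone (2034 by label). Promoters with 2-fold more reads in Norm-Sen (23) were 0 on the background scale and 38 where peaks did not have to overlap, and those with 2-fold fewer (15) were 289 on the background scale. The read alternatives were chosen after seeing the data.

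No paired analysis was possible because each condition had 1 library. Leaving out a library was not run for the same reason. Depth limits single promoters most: with about 20 reads a side, only differences near 2-fold leave counting error. The reads of a library at places where it has no peak are not known here.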
